A study of Mus musculus with 4 samples.

Results

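The interferon-stimulated genes examined here were 9 genes chosen by name, Isg15, Ifit1, Ifit2, Ifit3, Irf1, Irf7, Bst2, Rsad2 and Oasl2, out of 32288 genes in the deposited count table. All 9 were found in it. They were followed in the lineage-traced pancreas cells of 4 mice with caerulein pancreatitis, in each deposited cell type and in the cells that carry no deposited type. The question was whether a difference between mice was shared by all cell types.

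All mice carried Ptf1aCre-ERTM;ROSAYFP/+ on a background crossed into CD-1, an outbred stock, so the animals are not genetically identical. Tamoxifen was given before injury to switch on EYFP in cells that express Ptf1a, which in the adult pancreas marks acinar cells. Caerulein, a cholecystokinin analogue that causes pancreatitis, was then injected from 10 weeks of age for 2 weeks in 2 mice and for 4 weeks in another 2 mice. No uninjured mice were analysed here, so every value comes from injured tissue. EYFP-positive cells were sorted and single-cell libraries were counted as UMIs (unique molecular identifiers, 1 per captured transcript). The table held 21140 cells. Of these, 13362 had 1 of 8 deposited type names, and 7778 had none and are described last. The mouse is the replicate, with n = 2 per time point.

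Cells raise the expression of these genes when interferons bind their receptors. Receptor-bound JAK kinases phosphorylate STAT proteins, which then enter the nucleus. The complex formed after type I interferon binds the interferon-stimulated response element (ISRE) near the target genes. The STAT pairs formed after interferon gamma bind a different element, GAS. The products restrict viruses at many steps, and the same genes also rise in sterile inflammation, including that of injured epithelia.

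The ISRE letters are shown because many interferon-stimulated genes are known to be switched on together through that element. The RefSeq promoter table (GRCm38.p6) matched 9 of 9 members, and the 250 bases before each start site were searched on both strands, counting overlapping matches. The ISRE core was taken as 2 copies of GAAA with any 2 bases between them, and it was found in 5 of 9 members, against 3.46% of 27025 genes with a promoter in the table (2.98% of its 32851 promoters). The GAS letters TTCNNNGAA were found upstream of Bst2, Irf1 and Ifit2, against 8.13% of genes. In the windows below, written 5′ to 3′ on the strand of each gene, the capitals mark the ISRE core or its reverse complement.
Isg15, chr4:156200860-156200911, minus strand: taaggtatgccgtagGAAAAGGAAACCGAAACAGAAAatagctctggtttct
Bst2, chr8:71537572-71537617, minus strand: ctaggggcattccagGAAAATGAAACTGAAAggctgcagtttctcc
Rsad2, chr12:26456548-26456587, minus strand: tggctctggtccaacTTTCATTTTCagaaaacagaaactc
Ifit3, chr19:34583358-34583431, plus strand: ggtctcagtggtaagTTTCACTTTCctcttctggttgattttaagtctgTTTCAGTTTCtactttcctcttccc
Ifit1, chr19:34640770-34640828, plus strand: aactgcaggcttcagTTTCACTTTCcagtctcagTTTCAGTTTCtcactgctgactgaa

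Isg15 held 3 overlapping copies of the core and Bst2 held 2, while Ifit1 and Ifit3 each held 2 separate copies on the opposite strand. Irf7, Oasl2, Irf1 and Ifit2 had no match, which says only that these letters are not in that window. A match is a description of sequence and not a measured site. The windows lie upstream of the annotated starts, and gene positions below are those of GENCODE vM21 on GRCm38.

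Libraries held between 72459531 and 103610807 UMIs per mouse, and typed cells had a median of 13464 to 20807 UMIs. The deposited names went with their markers: 7 tuft markers summed to between 4987 and 5242 CPM (UMIs of a gene scaled to a common library total) in Tuft cells, and 10 acinar markers to at least 345722 CPM in Acinar cells of every mouse. Of 21068 distinct barcodes, 67 occurred in more than 1 library. Immediate early genes, which respond to tissue dissociation, were highest in 2-week mouse 2 in 7 of 7 types and lowest in 2-week mouse 1 in 4 of 7. They summed to 809, 1757, 378 and 461 CPM in Acinar cells of 2-week mouse 1, 2-week mouse 2, 4-week mouse 1 and 4-week mouse 2, and to 4428, 7474, 5778 and 4874 CPM in Ductal-like cells. The labels used here give no sex. Xist, the RNA that silences an X chromosome in females, was 239, 463, 209 and 0.0561 CPM in Acinar cells of the mice in that order, and 4 Y-linked genes summed to 0, 0, 0 and 35.8 CPM. Over all deposited types the Y-linked sum was at least 35.8 CPM in 4-week mouse 2 and at most 0.0270 CPM in the other mice, and Xist was at most 0.557 CPM in 4-week mouse 2 and at least 209 CPM in the others, so the mice within the 4-week arm differed in both. The part of these measures in the results was not tested.

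For 8 of the 9 genes, 2-week mouse 1 was the highest of the 4 mice in every type tested. The 9 genes summed to 485 CPM in its Acinar cells, 35.6 in 2-week mouse 2, 39.7 in 4-week mouse 1 and 53.2 in 4-week mouse 2. In Ductal-like cells the sums were 2864, 77.2, 268 and 210 CPM in the same order of mice. The time points overlapped in the summed level in all 7 types, since 2-week mouse 1 was above both 4-week mice and 2-week mouse 2 was below at least 1 of them.

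Summed MucinDuctal levels were 639, 53.2, 65.9 and 111 CPM, Acinar/MucinDuctal levels were 609, 43.9, 69.5 and 84.7 CPM, and Acinar.Prolif levels were 260, 49.9, 44.4 and 62.6 CPM. In Tuft cells the sums were 883, 120, 236 and 272 CPM. In enteroendocrine cells (EEC) they were 365, 53.7, 58.4 and 64.7 CPM. Relative to 2-week mouse 2, the summed level of 2-week mouse 1 was 5.20-fold higher in Acinar.Prolif cells (95% interval 4.41 to 6.17), the lowest ratio of the 7 types. It was 37.1-fold higher in Ductal-like cells (32.0 to 43.3), the highest ratio. These are exact intervals on counts, and they and the other intervals on single mice cover counting error only. Each mouse is a single animal, so a difference between 2 mice has no replicate check.

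Against the 4-week mice, the summed level of 2-week mouse 1 was 3.74-fold and 3.24-fold higher in Tuft cells, the smallest ratios, and 12.2-fold and 9.13-fold higher in Acinar cells. The 4-week mice differed from each other by 0.781-fold (Ductal-like) to 1.69-fold (MucinDuctal). The Tuft/EEC.Progenitor type had 10 cells in 2-week mouse 1 and was left out of the counts below, which needed 20 cells in each mouse. Its summed levels were 1342, 44.7, 53.2 and 87.1 CPM.

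**Figure D1:**
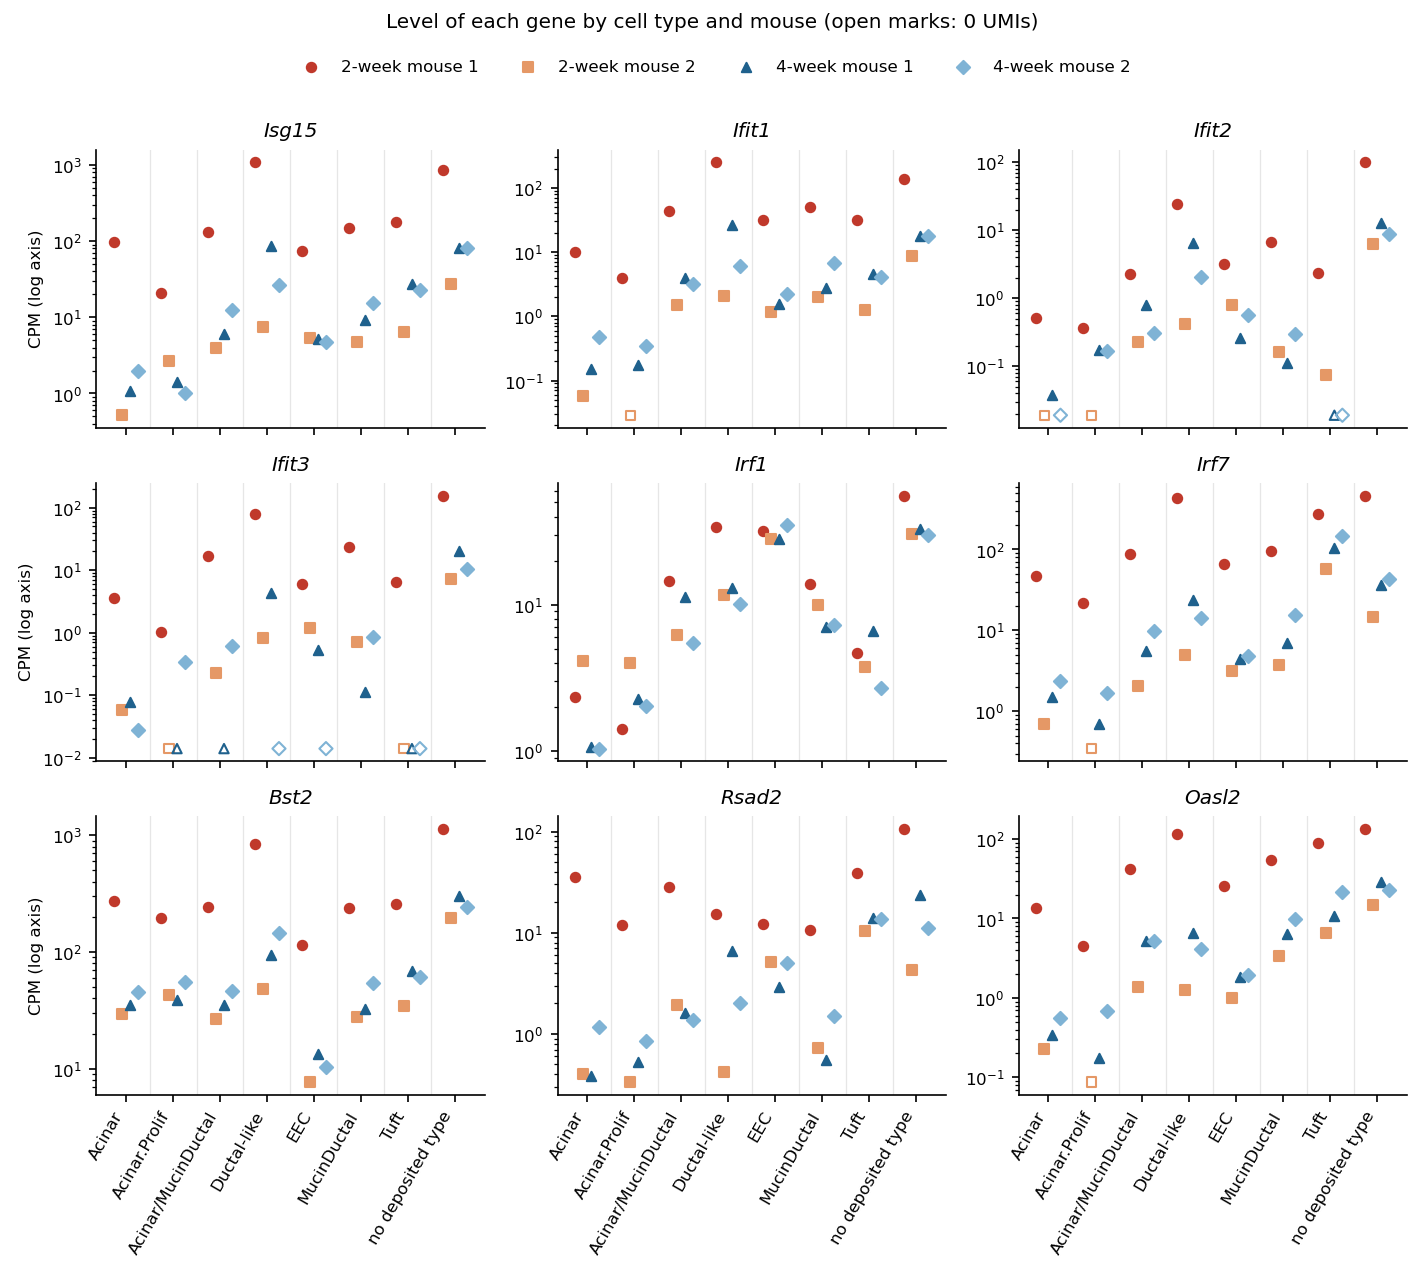
Level of each of the 9 genes in CPM (log axis) in the 7 tested types and in cells without a deposited type, 1 mark per mouse, with open marks for 0 UMIs. Marks of 2-week mouse 1 lie above the other mice for every gene except Irf1, where the mice are mixed.

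Across the 7 types, 2-week mouse 1 had the highest CPM of the 4 mice for 8 of 9 members in each of Acinar, Acinar.Prolif, EEC and Tuft cells. Among all genes with a mean of at least 1 CPM the shares were 22.2%, 10.6%, 21.8% and 25.8%. It was highest for 9 of 9 members in Acinar/MucinDuctal, Ductal-like and MucinDuctal cells, where the shares over all genes were 34.1%, 24.4% and 29.2%. The same 8 members were highest in 2-week mouse 1 in every type, which held for 0.818% of 13208 genes. Irf1 was the exception. Between 7 and 9 members had a mean of at least 1 CPM in a type, and the counts above are over all 9.

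A rule of at least 4-fold above 2-week mouse 2 was met by 7 members in Acinar, EEC and Tuft cells (0.976%, 1.62% and 1.42% of all genes) and by 5 in Acinar.Prolif cells (0.593%). It was met by 8 members in Acinar/MucinDuctal, Ductal-like and MucinDuctal cells (2.18%, 2.74% and 1.32%). In every type at once it was met by Isg15, Irf7, Bst2 and Oasl2, which are 4 of the 24 genes that met it among 13208 (0.182%).

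**Figure D2:**
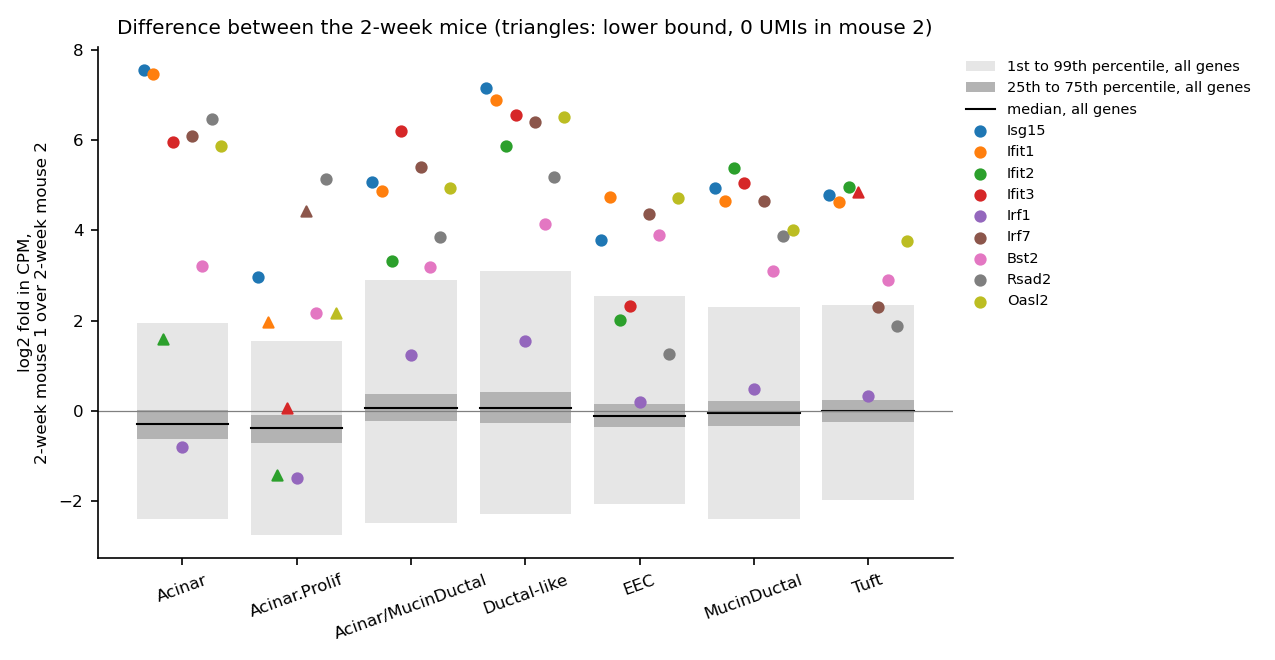
Log2 ratio of CPM in 2-week mouse 1 to 2-week mouse 2 for the 9 genes in each type, over the percentiles of all genes (grey bands); triangles are lower bounds for genes with 0 UMIs in 2-week mouse 2. In Acinar/MucinDuctal, Ductal-like and MucinDuctal cells 8 members lie above the band, with Irf1 inside it.

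Irf7 encodes the transcription factor that amplifies type I interferon production. Its level was 47.6 CPM in Acinar cells of 2-week mouse 1, and 0.691, 1.49 and 2.38 CPM in 2-week mouse 2, 4-week mouse 1 and 4-week mouse 2. In Tuft cells it was 277, 56.6, 105 and 147 CPM. Tuft cells held the highest Irf7 level of the 7 types in 3 of the 4 mice, and in 2-week mouse 1 Ductal-like cells were higher, at 427 CPM. The ratio of the 2-week mice was 68.8-fold in Acinar and 4.89-fold (4.35 to 5.49) in Tuft cells, where 2-week mouse 2 also carried the transcript in 44.4% of cells (40.5 to 48.2, exact binomial). In Acinar.Prolif cells of 2-week mouse 2 there were 0 UMIs, and 2-week mouse 1 was at least 21.7-fold higher, taking 3 UMIs as the floor. Irf7 (chr7:141262706-141266481) overlaps Phrf1 on the opposite strand.

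Irf1 encodes a transcription factor that responds mainly to interferon gamma. It was 32.1, 28.2, 28.1 and 35.0 CPM in EEC, its highest type in 3 of the 4 mice, and 2.33, 4.09, 1.07 and 1.04 CPM in Acinar cells. The mice were close together in EEC, and in Acinar cells 2-week mouse 2 was the highest. In Ductal-like cells Irf1 was 34.2, 11.7, 13.1 and 10.2 CPM, so 2-week mouse 1 was 2.93-fold (1.79 to 4.88) above 2-week mouse 2. Over the 7 types that ratio ran from 0.352 in Acinar.Prolif to 2.93 in Ductal-like cells. Irf1 (chr11:53770014-53778374) overlaps Gm17334 on the opposite strand.

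Isg15 encodes a ubiquitin-like protein that is attached to other proteins. It lies at chr4:156199424-156200818. Acinar cells held 97.6 CPM in 2-week mouse 1 and 0.519, 1.07 and 1.99 CPM in the other mice, in the order given above. Ductal-like cells held 1075, 7.51, 87.3 and 26.5 CPM. MucinDuctal cells held 148, 4.80, 9.30 and 15.5 CPM. 2-week mouse 1 was far above the rest in all these types, by 188-fold (99.1 to 412) over 2-week mouse 2 in Acinar cells and by 7.77-fold (3.89 to 18.2) in Acinar.Prolif cells. Ordered by the mean of the 4 mice, Isg15 ran from Ductal-like (299 ± 518, SD, n = 4) through Tuft (58.6 ± 80.1) and MucinDuctal (44.5 ± 69.4) to Acinar.Prolif cells (6.48 ± 9.59). Acinar/MucinDuctal, Acinar and EEC lay, in that order, between MucinDuctal and Acinar.Prolif cells. All types come from the same 4 mice, and within mice each neighbour in the order was above the next in 4 of 4, except Acinar above EEC, which held in 1 of 4. The counting intervals of MucinDuctal and Acinar/MucinDuctal overlapped in all 4 mice, those of Ductal-like and Tuft in 2 of 4, and those of Tuft and MucinDuctal and of EEC and Acinar.Prolif in 1 of 4 each. Those of Acinar/MucinDuctal and Acinar, and of Acinar and EEC, overlapped in 0 of 4. The CPM total includes acinar enzymes, and this order was not recomputed without them. Without them the 9 genes summed to 1036 CPM in Acinar cells of 2-week mouse 1, against 485 with them. The sums were 816 against 609 in Acinar/MucinDuctal, 659 against 639 in MucinDuctal and 902 against 883 CPM in Tuft cells. The place of Acinar cells among the types therefore depends on the scaling.

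Ifit1, Ifit2 and Ifit3 encode a family of proteins that bind foreign RNA and stop its translation, and they lie together on chromosome 19 (Ifit1 chr19:34640871-34650009, Ifit2 chr19:34550694-34576419, Ifit3 chr19:34583531-34588731). Ifit1 was 50.5, 2.00, 2.73 and 6.65 CPM in MucinDuctal cells and 10.2, 0.0576, 0.153 and 0.477 CPM in Acinar cells. Ifit3 was 23.3, 0.702, 0.111 and 0.857 CPM in MucinDuctal cells. Ifit2 was 6.72, 0.162, 0.111 and 0.300 CPM there. All 3 were highest in 2-week mouse 1 in every type, but Ifit2 on few UMIs. It had at most 7 UMIs in any type of the other mice. In 2-week mouse 1 it had 4 in Tuft, 5 in Acinar.Prolif and 8 in Acinar/MucinDuctal cells. With cells that held an immune UMI left out, Ifit2 was not highest in 2-week mouse 1 in EEC or Tuft cells. Ifit3 aligned with its copy Ifit3b over 1700 bases with 97.8% identity, so Ifit3 counts are uncertain where reads could belong to either.

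Rsad2 (chr12:26442746-26456452) encodes viperin, an enzyme that makes a chain-terminating nucleotide. Acinar cells held 35.8, 0.403, 0.383 and 1.18 CPM and Tuft cells 38.6, 10.5, 13.8 and 13.8 CPM. Tuft cells had the highest Rsad2 CPM of the 7 types in every mouse, but Acinar cells were close in 2-week mouse 1. There the order depends on the scaling, and it was not recomputed without acinar enzymes in the total. Without them the summed members of that mouse went from 485 to 1036 CPM in Acinar and from 883 to 902 CPM in Tuft cells. The Rsad2 ratio of the 2-week mice was 3.69-fold (2.71 to 4.98) in Tuft cells, against 88.8-fold (43.0 to 221) in Acinar cells. In EEC it was 12.3, 5.13, 2.89 and 5.04 CPM, and the ratio was 2.40-fold. Oasl2 (chr5:114896936-114912234), of the oligoadenylate synthetase family, was 55.0, 3.40, 6.40 and 9.86 CPM in MucinDuctal cells and 89.0, 6.57, 10.8 and 21.3 CPM in Tuft cells. Both genes kept 2-week mouse 1 on top in these types.

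Bst2 (chr8:71534255-71537456) encodes tetherin, a membrane protein that holds budding virus at the cell surface. It was 274, 29.6, 35.1 and 45.5 CPM in Acinar cells, 236, 27.7, 32.8 and 53.8 CPM in MucinDuctal cells and 845, 48.0, 93.9 and 145 CPM in Ductal-like cells. EEC held less, 115, 7.70, 13.4 and 10.4 CPM. Its ratio between the 2-week mice stayed between 4.52-fold (3.78 to 5.44) in Acinar.Prolif and 17.6-fold (14.5 to 21.5) in Ductal-like cells. Bst2 was therefore present in all mice and higher in 2-week mouse 1, while Isg15, Ifit1 and Irf7 were close to 0 in Acinar cells of the other mice.

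Isg15 was also found in the largest share of cells in 2-week mouse 1. At least 1 UMI of it was present in 28.5% of Acinar cells of 2-week mouse 1 (26.2 to 30.9), 1.54% of 2-week mouse 2 (0.708 to 2.91), 3.02% of 4-week mouse 1 (1.92 to 4.49) and 4.48% of 4-week mouse 2 (3.22 to 6.06). Acinar cells had median depths of 24008 to 32665 UMIs, so the shares were also computed with each cell thinned to 1500 UMIs. They were then 5.95%, 0.0416%, 0.139% and 0.339%. In Ductal-like cells the thinned shares were 59.7%, 1.17%, 8.42% and 4.05%, and in Tuft cells 17.5%, 0.891%, 3.61% and 2.50%. In these 3 types the order of the mice in Isg15 at equal depth was that of the CPM values. Depth differed most in Acinar/MucinDuctal cells, whose medians were 3387, 19556, 2659 and 3555 UMIs, and there the thinned Isg15 shares were 12.6%, 0.916%, 0.698% and 1.33%. 4-week mouse 1 was the lowest by share there, while 2-week mouse 2 was the lowest by CPM.

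**Figure D3:**
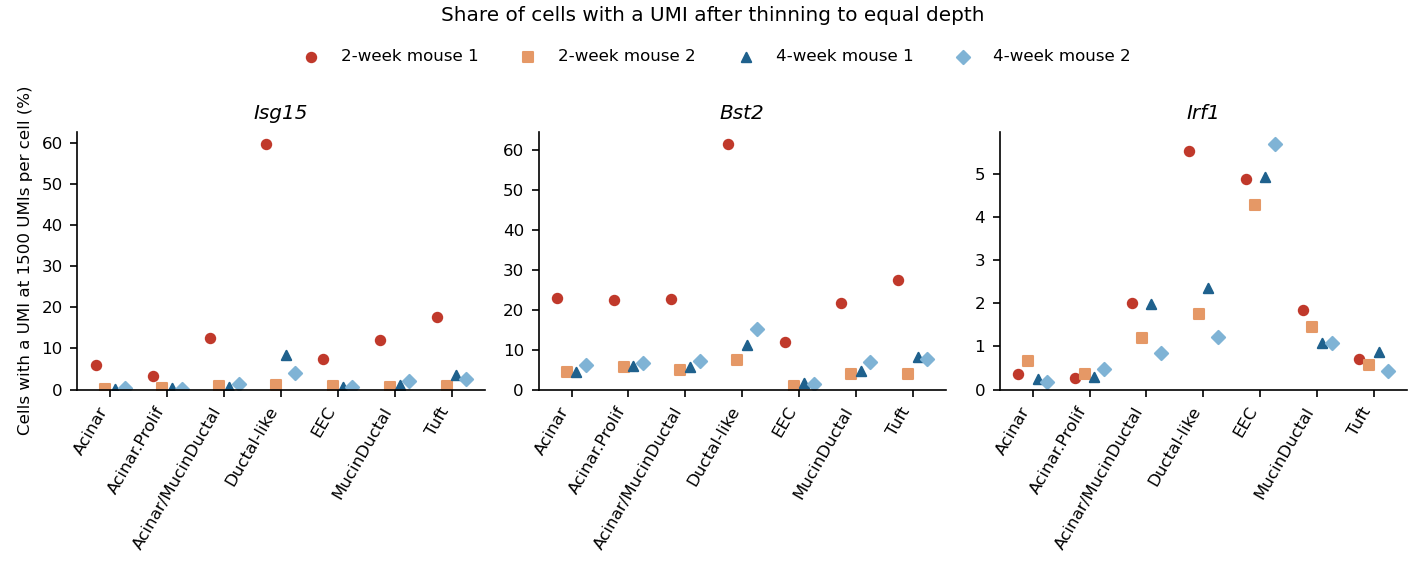
Share of cells with at least 1 UMI of Isg15, Bst2 and Irf1 after thinning each cell to 1500 UMIs, by type, 1 mark per mouse. Isg15 and Bst2 are highest in 2-week mouse 1 in each type, and Irf1 is highest in EEC except in 2-week mouse 1, where Ductal-like cells are higher, with the mice in a different order in each type.

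The transcripts were unevenly spread over the cells of each mouse. In Acinar cells the 10% of cells with the most member UMIs held 68.3% of them in 2-week mouse 1, and 48.7%, 53.6% and 52.3% in the other mice. In Tuft cells they held 39.4%, 49.2%, 41.5% and 42.5%, and in Ductal-like cells 33.7%, 30.3%, 56.1% and 36.9%. Depth was not made equal for these shares. The median Acinar cell of 2-week mouse 1 held 3 UMIs against 38 at the 90th percentile. At least 3 of the 9 genes were found in 27.7% of Acinar cells of 2-week mouse 1, against 1.54%, 1.05% and 2.91% in the other mice. In Ductal-like cells the shares were 97.4%, 12.5%, 26.1% and 45.5%, and in Tuft cells 74.7%, 12.0%, 22.6% and 24.1%. After thinning, at least 3 members remained in 2.15% of Acinar cells of 2-week mouse 1 and in 0 of 581, 0 of 761 and 0 of 880 in the other mice, which allows shares of up to 0.516%, 0.394% and 0.341%. These limits concern detection of 3 genes at 1500 UMIs, not the share of cells that express them.

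Ratios between members and markers of immune cells were measured beside these levels. Within 2-week mouse 1 the UMIs of Bst2 per UMI of Isg15 ran from 0.786 in Ductal-like to 9.30 in Acinar.Prolif cells, and those of Rsad2 per UMI of Ifit1 from 0.0610 in Ductal-like to 3.52 in Acinar cells. The part of free RNA in these levels was not tested.

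Markers of macrophages, a list of 9 genes, summed to between 10.4 and 27.6 CPM in Acinar cells and to between 5498 and 8385 CPM in cells without a deposited type, and 6 genes of immune cells in general were highest in 2-week mouse 1 in 0 of 7 types. Against 2-week mouse 2 alone, 2-week mouse 1 was higher in the macrophage sum in 3 of 7 types and in the general immune sum in 4 of 7. The macrophage sums were 126, 58.8, 15.6 and 12.7 CPM in Tuft cells, 134, 54.6, 39.3 and 193 CPM in Ductal-like cells and 97.9, 29.8, 138 and 20.7 CPM in EEC. The general immune sums were 85.9, 40.9, 10.9 and 163 CPM in Ductal-like cells and 50.3, 20.5, 52.9 and 6.16 CPM in EEC. Their part in the results was not tested. At least 1 UMI of any of 33 immune marker genes was found in 71.2% of Acinar cells of 2-week mouse 1 and in 71.4% of those of 2-week mouse 2. These 2 mice differed more in Acinar/MucinDuctal cells, at 48.8% and 75.4%, and in MucinDuctal cells, at 28.6% and 51.7%. Depth was not made equal for these shares, and its part in them was not tested. The median depths were 3387 and 19556 UMIs in Acinar/MucinDuctal cells and 19304 and 21810 UMIs in MucinDuctal cells. With all cells that held an immune UMI left out, the summed members in 2-week mouse 1 were 5.62-fold (Acinar.Prolif) to 29.7-fold (Ductal-like) above 2-week mouse 2. In these cells 2-week mouse 1 was highest for 7 to 9 members in each type. Over all genes it was highest for 11.0% (Acinar.Prolif) to 42.4% (Acinar/MucinDuctal). Leaving them out kept 13 Acinar.Prolif cells in 2-week mouse 2 and 10 to 23 Ductal-like cells per mouse. Doublets were not called, and their part in the result was not tested.

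Finer names deposited for EEC and Tuft cells gave 7 subtypes with at least 20 cells in each mouse. Isg15, Ifit1, Irf7, Bst2 and Oasl2 were highest in 2-week mouse 1 in 7 of 7 subtypes, as were 0.414% of 13529 genes with a mean of at least 1 CPM. Rsad2 was highest in it in 6 subtypes, Ifit3 in 5, and Ifit2 and Irf1 in 3. Of all genes, 0.857% were highest in it in at least 6 and 25.7% in at least 3. In Tuft-3 cells Isg15 was 309, 9.39, 33.6 and 24.8 CPM, and in Tuft-2 cells 71.3, 7.38, 26.1 and 25.8 CPM. Irf7 was 459, 114, 154 and 201 CPM in Tuft-3 cells.

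The comparison of 4 with 2 weeks found no member past the threshold. With edgeR's quasi-likelihood test and Benjamini-Hochberg adjustment over all genes of a type, 0 members were called at an adjusted p of 0.05 in each of the 7 types. Of all genes, 0.00995% were called in Acinar.Prolif cells and 0% in the other types. Of the 9 members, 7, 3, 6, 5, 5, 8 and 7 passed the filter on low counts in Acinar, Acinar.Prolif, Acinar/MucinDuctal, Ductal-like, EEC, MucinDuctal and Tuft cells. Of these 41 tests 1 had an unadjusted p under 0.05. It was that of Irf1 in Acinar cells, with a log2 change of -1.11 and an SE of 0.34 (0.013 unadjusted, adjusted p = 0.998, edgeR). Of all genes tested in Acinar cells, 344 of 12343 had an unadjusted p under 0.05. DESeq2 also called 0 members, and 0% (Ductal-like) to 0.297% (MucinDuctal) of all genes.

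The members' log2 changes, 4 weeks over 2 weeks, were below 0 in 38 of 41 tests and ran from -4.70 to 0.15, with wide errors. Isg15 in Acinar cells had a log2 change of -4.70 with an SE of 2.85 (edgeR, adjusted p = 0.998), and in MucinDuctal cells -2.51 with an SE of 1.52 (adjusted p = 0.824). In Acinar cells Isg15 averaged 49.1 ± 68.7 CPM over the 2-week mice and 1.53 ± 0.65 CPM over the 4-week mice (SD, n = 2). Most of these signs rested on 1 animal, 2-week mouse 1. Whichever mouse was left out, the log2 change of Irf1 stayed below 0 in Acinar (-1.29 to -0.84) and MucinDuctal cells (-0.85 to -0.31). That of Isg15 stayed below 0 in Acinar.Prolif cells (-4.08 to -0.74). Leaving out 2-week mouse 1 changed which members passed the filter, to 7 in Acinar/MucinDuctal and 4 in Ductal-like cells. The 41 tests of that fit are therefore not the same 41 as above. Without 2-week mouse 1, 7 of 41 tests were below 0, and 5 were called higher at 4 weeks (Isg15 and Bst2 in Ductal-like cells, and Isg15, Irf7 and Bst2 in Tuft cells). Of all genes, 1.30% were called higher at 4 weeks in Ductal-like and 1.28% in Tuft cells in those fits. Without 2-week mouse 2, 39 of 57 tests were called lower at 4 weeks, against 0.360% (MucinDuctal) to 1.22% (Ductal-like) of all genes. These are more tests than the 41 above, because with 1 mouse in an arm a gene can pass the filter on low counts through 2-week mouse 1 alone, where the members are high, so the count describes that mouse and supports nothing over time. Both of these fits leave 1 mouse in the 2-week arm, which is assumed to vary like the 4-week mice. Without the filter on low counts 7 members were called in Acinar (1.48% of all genes) and 1 in Acinar.Prolif cells (0.300%). All were called lower at 4 weeks. Each was highest in 2-week mouse 1, and the levels of the time points overlapped for each, so these calls too describe that mouse.

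The time points did not overlap for 1 member in each of Acinar, Acinar.Prolif, Acinar/MucinDuctal, MucinDuctal and Tuft cells (66.1%, 31.4%, 32.3%, 39.8% and 35.1% of all genes). They did not overlap for 4 members in EEC (32.8%) and for 0 in Ductal-like cells (34.4%). No member kept the time points apart in every type, against 0.447% of genes. The members without overlap were Irf1 in Acinar and MucinDuctal, Isg15 in Acinar.Prolif, Rsad2 in Acinar/MucinDuctal and Ifit2 in Tuft cells. In EEC they were Isg15, Ifit2, Ifit3 and Rsad2. In Tuft cells Ifit2 had 4 UMIs in 2-week mouse 1 and a mean of 0 CPM over the 4-week mice. With only 9 members, these counts were not read as a difference from all genes. Between the 4-week mice, mouse 2 was higher for 9 of 9 members in MucinDuctal cells (53.7% of all genes), for 6 in Acinar (64.3%), Acinar.Prolif (59%) and EEC (65%), for 4 in Acinar/MucinDuctal (35.3%), for 2 in Tuft (44.2%) and for 1 in Ductal-like cells (53.5%). No member was higher in it in every type, against 5.31% of genes.

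The time effects in Acinar and in MucinDuctal cells were compared by an interaction term, with the mouse as a block. edgeR called 0 of 9 members and 0% of 14098 genes. The smallest member p was that of Oasl2 (0.0338 unadjusted, adjusted p = 1), the single member under 0.05. Of all genes in that test, 430 of 14098 had an unadjusted p under 0.05. Oasl2 had an interaction of 1.47 on the log2 scale with an SE of 0.56. DESeq2 called 0 members and 6 genes. Without 2-week mouse 2 the test called 4 members and 0.641% of all genes. Without 2-week mouse 1 it called 0 members and 6.64% of all genes, and without either 4-week mouse it called 0 members and at most 5 genes.

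The rest of the pathway was read from lists that name 105 genes of the table besides the members. Of 9 receptor and kinase genes, none was 4-fold higher in 2-week mouse 1 than in 2-week mouse 2 in any type, and the median log2 ratio of the 8 or 9 with a mean of at least 1 CPM lay between -0.39 and 0.10. It was -0.32 in Acinar/MucinDuctal and -0.37 in Ductal-like cells, where the median of all genes was 0.06 in both, and -0.31 against -0.11 in EEC and -0.21 against -0.06 in MucinDuctal cells. In Acinar, Acinar.Prolif and Tuft cells the medians were -0.39, -0.37 and 0.10, against -0.30, -0.39 and -0.0050 for all genes. Jak1, the kinase of several interferon receptors, had means over the 7 types of 75.7, 71.9, 68.3 and 72.1 CPM. Ifngr1, a chain of the interferon gamma receptor, had 35.5, 54.6, 38.4 and 49.5 CPM, and Il10rb, a chain of the lambda receptor, had 31.2, 34.1, 35.2 and 40.1 CPM. For Jak1 the 4 mice were close together, and for Ifngr1 and Il10rb 2-week mouse 1 was the lowest.

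Among 8 transcription factors, 1 or 2 met the 4-fold rule in each type. Of all genes with a mean of at least 1 CPM, 0.593% (Acinar.Prolif) to 2.74% (Ductal-like) met it. Irf2 averaged 54.5, 55.0, 55.7 and 55.5 CPM, and Irf3, a factor switched on by phosphorylation, 44.3, 37.8, 41.5 and 40.6 CPM. Of 11 sensors of foreign nucleic acid, 2 to 4 met the rule per type. Ddx58, which encodes RIG-I, averaged 32.7, 8.24, 13.1 and 11.9 CPM, and Eif2ak2, which encodes PKR, averaged 65.7, 24.8, 30.2 and 24.9 CPM. Adar averaged 33.3, 12.2, 15.1 and 12.2 CPM.

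Of 36 other type I targets, 9 (Acinar.Prolif) to 25 (Ductal-like) met the rule. Counting only those with a mean of at least 1 CPM, 8 (Acinar.Prolif) to 25 (Ductal-like) met it, against 0.593% and 2.74% of all genes. That mean is over all 4 mice, so a gene can reach it through 2-week mouse 1 alone. This holds for the next list too, and these counts are a description only. Ifitm3, which blocks viral entry, averaged 1263, 233, 305 and 361 CPM, Ifi27 603, 204, 348 and 350 CPM, and Ly6e 686, 439, 388 and 291 CPM. Of 26 interferon gamma-type targets, 4 (Acinar.Prolif) to 17 (Acinar/MucinDuctal, Ductal-like and MucinDuctal) met the rule. Counting only those with a mean of at least 1 CPM, 3 (Acinar.Prolif) to 17 (Ductal-like) met it, with 14 in Acinar/MucinDuctal and 13 in MucinDuctal cells. B2m, the light chain of MHC class I, averaged 361, 151, 167 and 229 CPM. The proteasome gene Psmb10 averaged 285, 186, 250 and 212 CPM and Psme1 218, 148, 142 and 152 CPM. Of 6 negative regulators 1 or 2 met it. Ptpn6 averaged 84.2, 86.7, 86.5 and 101 CPM, Ptpn2 26.7, 24.9, 24.5 and 28.3 CPM, and Socs3, an inhibitor of cytokine signalling, 8.55, 27.0, 10.1 and 8.16 CPM. Over time, edgeR called 0 of the list genes it tested (55 to 87 per type), and 1 to 6 per type had an unadjusted p under 0.05. In Acinar, Acinar.Prolif, Acinar/MucinDuctal, Ductal-like, EEC, MucinDuctal and Tuft cells these were 6 of 77, 6 of 55, 1 of 75, 1 of 57, 1 of 65, 4 of 87 and 2 of 70. Over all genes they were 344 of 12343, 246 of 10046, 397 of 11620, 461 of 8748, 478 of 11869, 726 of 13463 and 739 of 10967.

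**Figure D4:**
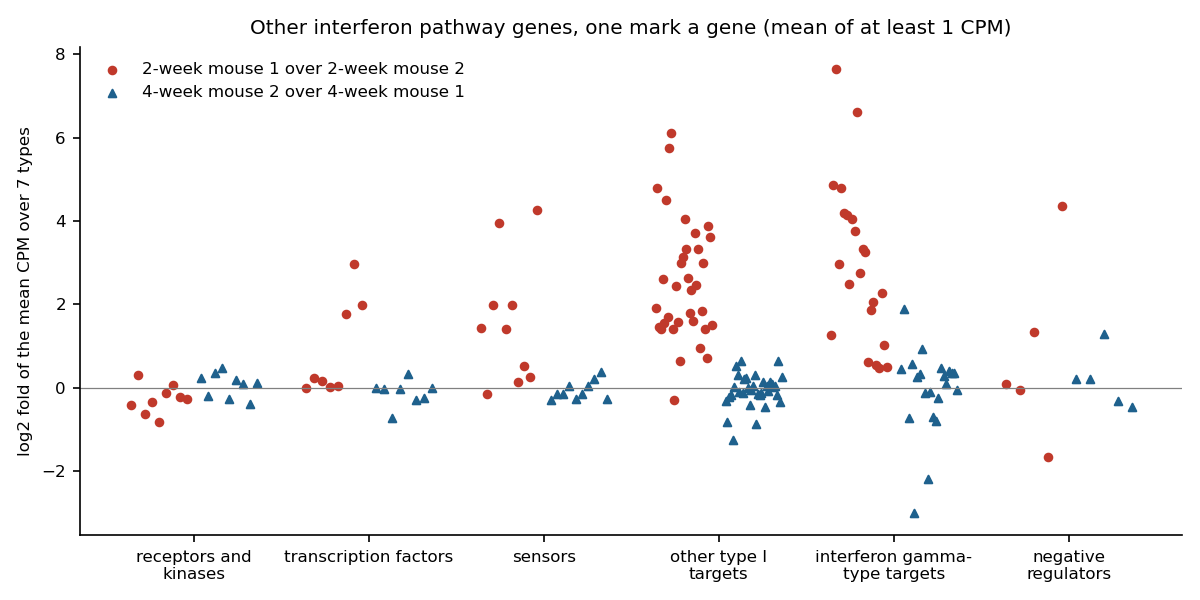
Log2 ratio of the mean CPM over 7 types for the pathway genes with a mean of at least 1 CPM, by role, for the 2-week pair (circles) and the 4-week pair (triangles); Cxcl9, at 0 in 4-week mouse 2, has no triangle. The mean is over all 4 mice, so a gene can be drawn through its level in 2-week mouse 1 alone. Targets lie above 0 for the 2-week pair, all but 1 of them. Receptors and kinases lie on both sides of 0, with Ifngr1 (35.5 against 54.6 CPM) among those below it.

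The genes most like the members were sought over 28 points, 4 mice in 7 types, as the Pearson correlation of log2(CPM + 1), centred within type, with the mean profile of the members. The search covered 7973 genes with a mean of at least 10 CPM over these points, which a gene can reach through 2-week mouse 1 alone. The 10 closest genes included Igtp (0.968), Usp18, Rnf213, Ifi44, Parp12, Irgm1, Xaf1, Rtp4 and Oas1a (0.946). All 10 were on the interferon lists, which were chosen with earlier results of these data known. Usp18, a protease that removes ISG15 from proteins, averaged 36.3, 1.78, 6.15 and 4.46 CPM. Points of 1 mouse share a library, so these correlations are a description. The correlation of Irf1 with the mean of all 9 members, itself included, was 0.503, and those of the other members were 0.891 to 0.992.

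The 7778 cells with no type name came through the same EYFP sort and hold many immune and stromal cells. Clustering that used no gene of the interferon lists gave 9 classes that could be named from marker genes and had at least 20 cells in each mouse. The summed members were highest in 2-week mouse 1 in 9 of 9 classes, by 2.39-fold to 15.2-fold over 2-week mouse 2. Ifit1, Irf7 and Bst2 were highest in it in 9 of 9 classes, as were 0.149% of 14094 genes with a mean of at least 1 CPM. Isg15, Ifit3 and Oasl2 were highest in it in 8, Rsad2 in 7, and Ifit2 and Irf1 in 6. Of all genes, 0.404% were highest in it in at least 8 and 2.29% in at least 6. Macrophage-like cells held 4180, 276, 1023 and 924 CPM of the summed members, and dendritic-like cells 6610, 519, 1183 and 1783 CPM. Endothelial-like cells held 5666, 1049, 1339 and 977 CPM. In B-like cells Isg15 was 37.2, 8.81, 37.9 and 20.1 CPM, so there 2-week mouse 1 and 4-week mouse 1 were close together. Mesothelial-like cells held the highest summed level of the 9 classes in all mice, 8072, 3382, 2961 and 3459 CPM, most of it Bst2 (4276, 2705, 2402 and 2950 CPM). Acinar-like cells held 178, 17.9, 25.8 and 30.1 CPM. Between 598 and 705 cells per mouse fell in clusters that could not be named, and their sums were 3315, 270, 464 and 418 CPM.

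**Figure D5:**
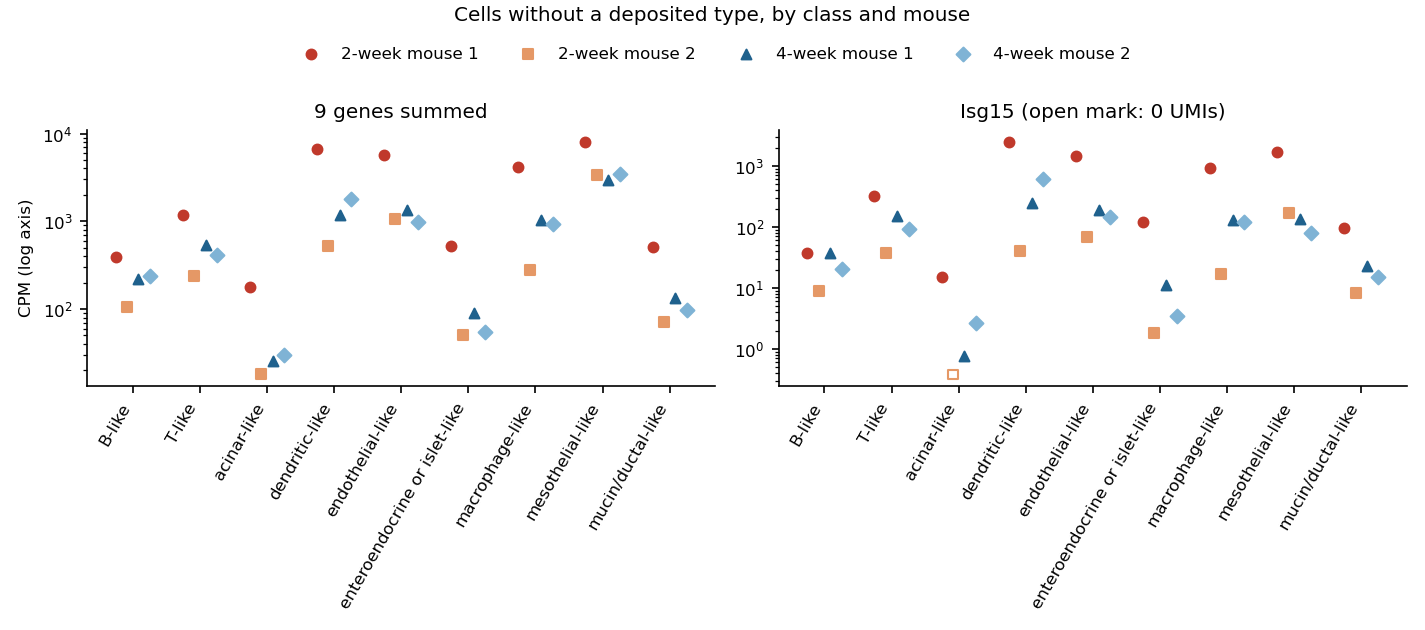
CPM (log axis) of the 9 genes summed and of Isg15 in the named classes of cells without a deposited type, 1 mark per mouse. The sum is highest in 2-week mouse 1 in all 9 classes, and Isg15 in all but B-like cells.

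Interferons themselves were hardly detected. Ifna1, Ifna2, Ifna4, Ifnb1 and Ifne had 0 UMIs in all 21140 cells. Ifng had 5, 3, 4 and 1 UMIs in the 4 mice, and the epithelial Ifnk 13, 55, 12 and 24, the most in 2-week mouse 2. Ifnl2 and Ifnl3, near-identical lambda interferon genes, had 21 and 20 UMIs in a single dendritic-like cell of 2-week mouse 1, which also held 118 Isg15 UMIs. Ifnl2 had 4 UMIs in a single dendritic-like cell of 4-week mouse 1, which also held 118 Isg15 UMIs. Neither lambda gene had a UMI elsewhere. These are counts in sorted cells, and interferon made by cells outside the sort was not measured.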

How the data were processed

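Raw UMI counts per gene and cell were deposited by the authors in a merged table and in a table of cells with a type name, and the 2 agreed in every shared cell (summed difference 0). Per the submitters' processing notes the tools were Cell Ranger 4.0.0 and Seurat 3.2.3 and the build was mm10; the annotation and quality filter are not given in the sources used here. The smallest cell had 1000 UMIs. Cells were assigned to mice by the sample name in the cell name, and 0 columns of per-sample values were left unmapped.

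Counts were summed per mouse and deposited type. Levels are CPM, scaled by all UMIs of that mouse and type, with 2 mice per time point. Types with at least 20 cells in each mouse were compared over time with edgeR 4.0.16 (quasi-likelihood, robust, TMM, filterByExpr; R 4.3.3), with adjustment over all genes of the type at 0.05, and with DESeq2 1.42.0 as an alternative. The edgeR test reports no standard error. An SE given with an edgeR log2 change is its absolute value divided by the square root of the F statistic, so it is approximate. Nothing in the labels says how the mice relate beyond their time point, so p-values measure only the spread between these animals. Single mice and single types were compared with no test. Floors were 3 UMIs and intervals 95%, exact. Thinned shares are exact expectations at 1500 UMIs, and thinned counts of several genes used 1 seeded draw per cell. The untyped cells were grouped in scanpy 1.11.5 by Leiden clustering at a resolution of 0.6, from 2000 variable genes, 30 components and 15 neighbours. Names needed 3 or more markers of a class, each present in 20% or more of a cluster and raised by 1 or more on the log2 scale, and 1 or more markers in the top 10 genes. No doublet caller was run.

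All 9 members are named. Of each pathway list the 3 genes with the highest mean CPM are named, with the 10 genes most like the members, except items that are not reported here; the other genes named were chosen after their values were seen. The members and lists were chosen with earlier results of these data known. Alternatives were other scalings, no filter, leaving out acinar enzymes, immune-marked cells or a mouse, other thinning and another cluster resolution.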

Additional observations from a re-analysis of the deposited data

How the results depend on the processing

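No paired analysis was possible because the labels give the mice no replicate numbers, and the numbers used here follow accession order and pair no animals. The interaction alone keeps the mouse as a block, over its 2 cell types. The comparison over time rests on 2 mice per time point, and no alternative of depth was run for it. Without the filter on low counts edgeR called 7 members in Acinar (1.48% of all genes) and 1 in Acinar.Prolif cells (0.300%), against 0 with it. All were called lower at 4 weeks, each was highest in 2-week mouse 1, and the time points overlapped for each. Leaving out each mouse in turn gave 0 to 7 called members in Acinar, 0 to 6 in Acinar.Prolif, 0 to 7 in Acinar/MucinDuctal, 0 to 6 in Ductal-like, 0 to 7 in EEC, 0 to 2 in MucinDuctal and 0 to 4 in Tuft cells, and 0 to 4 for the interaction. Each upper end is without 2-week mouse 2, where genes can pass the filter through 2-week mouse 1 alone. Of all genes, 0.667% to 3.11% per type were called without 2-week mouse 1, 0.389% to 1.70% without 2-week mouse 2, 0% to 0.221% without 4-week mouse 1 and 0% to 0.109% without 4-week mouse 2. An arm left with 1 mouse is assumed to vary like the other. The log2 change of Isg15, 4 weeks over 2 weeks, then ran from -5.67 to 2.22 in Acinar, -4.08 to -0.74 in Acinar.Prolif, -3.57 to 1.42 in Acinar/MucinDuctal, -4.34 to 2.88 in Ductal-like, -3.84 to 0.063 in EEC, -3.48 to 1.53 in MucinDuctal and -2.85 to 1.95 in Tuft cells. Each upper end is the value without 2-week mouse 1. That of Irf1 ran from -1.29 to -0.84 in Acinar, -0.50 to 0.62 in Acinar.Prolif (-0.06 without 4-week mouse 1), -0.82 to 0.37 in Acinar/MucinDuctal (0.18 without 4-week mouse 2), -1.50 to -0.69 in Ductal-like, -0.0018 to 0.31 in EEC, -0.85 to -0.31 in MucinDuctal and -0.57 to 0.69 in Tuft cells (-0.07 without 2-week mouse 2). The ratio of the summed members between the 2-week mice stayed above 5 in every type under the scalings tried. It was 16.9 in Acinar and 6.70 in Acinar.Prolif cells with TMM-scaled library sizes. Without cells that held an immune UMI it was 11.4 in Acinar, 12.2 in Acinar/MucinDuctal, 29.7 in Ductal-like, 5.80 in EEC and 16.3 in MucinDuctal cells, and the mean summed level of the 4-week mice in Ductal-like cells was 153 CPM. With acinar enzymes out of the library size that mean was 115 CPM in Acinar, 98.7 in Acinar.Prolif and 105 in Acinar/MucinDuctal cells, by construction, since the total is smaller. The share of cells of 2-week mouse 1 with an Isg15 UMI was 28.5% in Acinar, 27.2% in Acinar.Prolif, 28.9% in Acinar/MucinDuctal, 92.1% in Ductal-like, 25.8% in EEC, 34.8% in MucinDuctal and 51.8% in Tuft cells without thinning. With thinning to 3000 UMIs it was 9.18% in Acinar, 5.85% in Acinar.Prolif, 20.2% in Acinar/MucinDuctal, 11.6% in EEC and 17.7% in MucinDuctal cells. At another cluster resolution, 1.0, the summed members were highest in 2-week mouse 1 in 8 of 8 named classes of untyped cells and Isg15 in 7 of 8. Where not stated otherwise the cause of a change was not tested.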

Other observations

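The members and lists were chosen with earlier results of these data known, so the count that follows is a description only. Of the 24 genes that were at least 4-fold higher in 2-week mouse 1 than in 2-week mouse 2 in every type, 17 were members or genes of the interferon lists and 7 were on no list. Of those 7, the close paralogs Apol9a (26.9, 1.19, 1.63 and 2.69 CPM as the mean over 7 types in 2-week mouse 1, 2-week mouse 2, 4-week mouse 1 and 4-week mouse 2) and Apol9b (22.7, 0.607, 2.26 and 2.92 CPM) were highest in 2-week mouse 1 in 7 of 7 types, with counts that are uncertain where reads could belong to either. Pgc, which encodes a gastric proenzyme made by chief cells, averaged 15188, 343, 14095 and 7764 CPM and was highest in 2-week mouse 1 in 2 of 7 types. It therefore met the rule through a low level in 2-week mouse 2. Cblif, the gastric intrinsic factor gene, averaged 1629, 52.2, 952 and 555 CPM, and Igha, an antibody heavy chain, 6.47, 0.310, 18.4 and 1.19 CPM. These genes were singled out after their values were seen.

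5 MHC class I heavy chain genes and B2m summed to 536, 200, 197 and 348 CPM in Acinar cells of the 4 mice in the same order and were highest in 2-week mouse 1 in 5 of 7 types. In Tuft cells the sums were 2749, 1093, 2358 and 3095 CPM, with 4-week mouse 2 the highest.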
